A study of Mus musculus with 15 samples.

Results

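The 38 genes described here encode the ATF4 axis of the amino acid stress response, the enzymes of serine synthesis and folate one-carbon metabolism, other amino acid enzymes, and amino acid transporters. They were taken by symbol from the TPM table of a mouse CD4 T cell series, in which they held 39 of 55421 rows, because Ddit3 stood under a second gene ID that was at 0 in all 15 libraries. By role they were 7 transcription factors, 8 stress kinases and effectors, 3 serine synthesis enzymes, 5 folate one-carbon enzymes, 6 other amino acid enzymes and 9 transporters. TPM is a transcript's length-corrected share of all transcripts in a library, so levels can be set side by side between genes of a library.

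The series asks how T cell receptor signalling and STAT3 act in TH17 differentiation, and measured poly(A) RNA of cultures harvested on Day 5, with 3 libraries in each of 5 groups. Wild-type naive CD4 T cells from spleen and lymph node were grown under Treg conditions (TGFβ and IL-2) with Srci1 or with DMSO, and under TH17 conditions (IL-23, IL-1β, TGFβ and IL-6) with Srci1 or with DMSO. The remaining group was STAT3-fl/fl CD4-cre T cells under TH17 conditions with DMSO, called STAT3 KO TH17 below. In these mice floxed Stat3 is removed by a Cre driven from Cd4, which is active in developing T cells, so deletion precedes the culture and is not limited to TH17 cells, and the other 4 groups are labelled only as wild type. All groups were activated through CD3 and CD28, with IFNγ and IL-4 blocked by antibodies. The compound is named only as Srci1; it went into the wells 24 h after plating, at a dose the labels used here do not give. TGFβ was 0.5 ng/ml, or another dose not given here, in Treg cultures and 2.5 ng/ml in TH17 cultures, so a Treg against TH17 comparison also holds the differences in cytokines and TGFβ dose. Whether replicates were separate mice or cultures is not stated, and the p-values therefore measure the spread between libraries, which may be technical.

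Cells that run short of amino acids, or whose endoplasmic reticulum is stressed, activate kinases such as GCN2 (Eif2ak4) and PERK (Eif2ak3) that phosphorylate the translation factor eIF2α. General translation then falls while that of the ATF4 mRNA rises, and ATF4 with a C/EBP partner switches on genes for amino acid synthesis and import, along with its own inhibitors such as TRIB3. Because ATF4 is controlled largely at translation, its mRNA need not follow its protein. Activated T cells are known to depend on amino acid uptake through transporters such as SLC7A5 and on serine for one-carbon units used in nucleotide synthesis.

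The DNA element that ATF4 binds with a C/EBP partner has the core TGATGNAA, which was searched on both strands in the 250 bases before each RefSeq start site (GRCm38.p6). Promoters were at hand for 33 members with 40 start sites, and not for Cth, Eif4ebp1, Slc1a5, Slc38a1 and Slc7a5. The core stood in 7 of the 33 members (21.2%), against 1056 of 27025 genes in all (3.91%). The member list was drawn up to hold the ATF4 axis, so it was not neutral to this element. The difference in share was not tested. The 30 bases around each core are shown because these are the member promoters that hold it; they are written 5′ to 3′ on the gene's strand, and capitals mark the core or, on the other strand, its reverse complement.
Asns: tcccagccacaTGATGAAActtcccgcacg
Atf3: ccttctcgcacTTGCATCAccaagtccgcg
Chac1: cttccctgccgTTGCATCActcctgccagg
Nupr1: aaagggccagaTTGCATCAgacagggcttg
Pycr1: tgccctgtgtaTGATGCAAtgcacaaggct
Slc7a11: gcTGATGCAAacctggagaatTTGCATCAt
Vldlr: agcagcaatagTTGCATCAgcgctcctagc

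These windows lie at chr6:7693214-7693243 (Asns, minus strand), chr1:191183425-191183454 (Atf3, minus), chr2:119351038-119351067 (Chac1, plus), chr7:126625562-126625591 (Nupr1, minus), chr11:120643833-120643862 (Pycr1, minus), chr3:50443652-50443681 (Slc7a11, minus) and chr19:27216809-27216838 (Vldlr, plus). The annotation places an exon of the same gene within the windows of Asns, Nupr1 and Vldlr, and no exon within the others. The core was TGATGAAA in Asns and TGATGCAA, read on one strand or the other, in the other 6. Its first base lay at -23 from the start site in Asns, at -103 in Pycr1, at -110 in Atf3 and Nupr1, at -193 in Chac1 and at -200 in Vldlr, where 1 of 2 start sites had the core. Slc7a11 held the core on both strands, at -66 and -47. A match describes these letters and is not evidence of binding.

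**Figure D1:**
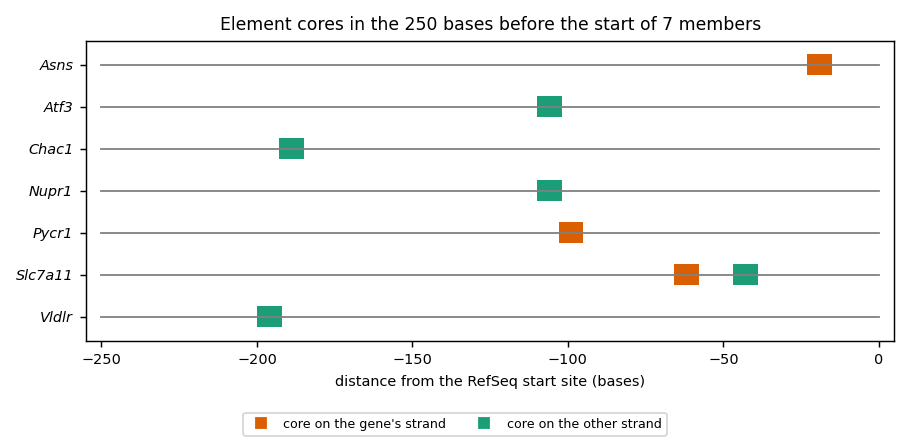
Position of the TGATGNAA core, in bases from the RefSeq start site, in the 7 member promoters that hold it, coloured by strand. Slc7a11 has 2 cores and the other 6 genes 1 each, from -200 in Vldlr to -23 in Asns.

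In the libraries, Stat3 was at 33.5, 38.4 and 30.7 TPM in STAT3 KO TH17 libraries, against 129.7, 132.9 and 99.8 TPM in DMSO TH17 libraries, so the residual transcript did not overlap the wild-type level. The summed level of 5 CD4 T cell genes (Cd3e, Cd3d, Cd3g, Cd4 and Trac) was 1385.5 to 2419.8 TPM over all 15 libraries. Il17a averaged 0.14 ± 0.125 TPM in Srci1 Treg, 0.0267 ± 0.0462 TPM in DMSO Treg, 40.4 ± 3.31 TPM in Srci1 TH17, 10.2 ± 1.45 TPM in STAT3 KO TH17 and 1337.9 ± 51.5 TPM in DMSO TH17 libraries (SD, n = 3 each). Foxp3, which marks Treg cells, averaged 268.5 ± 11 TPM in Srci1 Treg, 129.7 ± 2.23 TPM in DMSO Treg, 203.6 ± 8.37 TPM in Srci1 TH17, 204.6 ± 17.6 TPM in STAT3 KO TH17 and 11.7 ± 2.15 TPM in DMSO TH17 libraries, so the Srci1 TH17 and STAT3 KO TH17 libraries are named by their culture conditions, not by a TH17 expression profile. Pairwise correlations of log2(TPM + 1) over genes were 0.977 to 0.986 within groups and 0.902 to 0.97 between groups. Ribosomal protein genes took 20.3% to 21.3% of TPM in Srci1 Treg, 24.9% to 25.2% in DMSO Treg, 21.5% to 22.7% in Srci1 TH17, 27.4% to 29.7% in STAT3 KO TH17 and 26.5% to 30.4% in DMSO TH17 libraries. The median of all tested genes was displaced upward on the log2 scale. The displacement was 0.21 (Srci1 TH17 against DMSO TH17), 0.13 (STAT3 KO against wild type), 0.11 (Srci1 Treg against DMSO Treg) and 0.18 (DMSO Treg against DMSO TH17). It was 0.13 for the difference of the Srci1 effects and 0.11 for Srci1 against STAT3 KO. TPM has a fixed total, and the cause of these displacements was not tested. The counts over all members are therefore also given under 2 scalings that centre the libraries on each other, median-of-ratios and quantile normalization. Under the TPM as deposited, 82.7% of all calls for Srci1 in TH17 cells were higher, against 50% and 52.3% under these scalings; the shares were 62.1%, 49.5% and 50.9% for the knockout, 63%, 43.5% and 51.1% for Srci1 in Treg cells, 72%, 48.9% and 49.7% for Treg against TH17, 79.2%, 61.9% and 57.1% for the difference of the Srci1 effects and 62.4%, 50.8% and 50.6% for Srci1 against STAT3 KO. In bulk samples, fewer cells of a type and less RNA per cell cannot be told apart.

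Differences are of mean log2(TPM + 1), which understates the change of low genes, for the first-named group minus the second, with the standard error and limma's adjusted p over 12800 genes. A gene is called where that p is under 0.05. Of the 38 members 37 were tested, and Slc7a11, whose product imports cystine for glutathione, stayed below 1 TPM in every library. The summed level of the 38 genes was 2140.7 to 2268.9 TPM in Srci1 Treg, 2871.0 to 2970.1 TPM in DMSO Treg, 2200.6 to 2250.0 TPM in Srci1 TH17, 1411.2 to 1493.5 TPM in STAT3 KO TH17 and 1870.8 to 2022.3 TPM in DMSO TH17 libraries. DMSO Treg libraries were thus highest and STAT3 KO TH17 libraries lowest, with no overlap with any other group. For 25 of the 38 genes the highest group mean was in DMSO Treg, and for 29 the lowest was in STAT3 KO TH17.

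**Figure D2:**
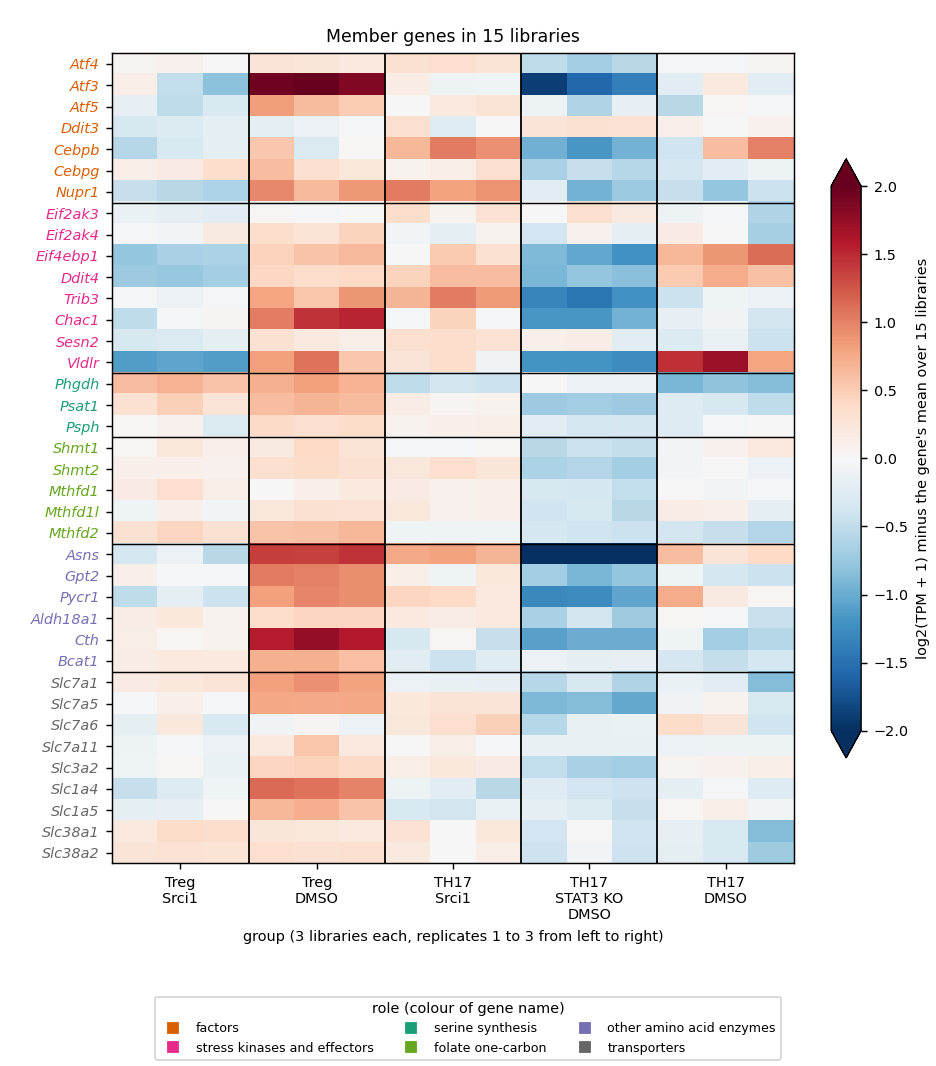
Level of each of the 38 members in the 15 libraries, in columns by group and in rows by role, as log2(TPM + 1) minus the gene's mean over all libraries. DMSO Treg columns are mostly above the mean and STAT3 KO TH17 columns mostly below it, where 29 of 38 members have their lowest group mean.

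Most members fell with Srci1 in Treg cells. Of the 37 genes tested, 25 fell with Srci1 in Treg cells, against 10.0% of all genes, and 0 rose, against 17.1%. No member was higher at an unadjusted p under 0.05 either. The median difference was -0.46, against 0.11 over all genes. The genes that fell by at least 1 were the factors Atf3 and Nupr1, the effectors Ddit4, Chac1, Vldlr and Eif4ebp1, the enzymes Asns, Pycr1 and Cth, and the transporter Slc1a4. All 25 calls held under both other scalings, which called 27 and 30 members lower. Leaving out single libraries ended only the calls of Atf4 (highest adjusted p = 0.0849, without Srci1 Treg replicate 3; also without replicate 1, or DMSO Treg replicate 1 or 2) and Mthfd1l (highest adjusted p = 0.108, without Srci1 Treg replicate 1; also without replicate 3 or any DMSO Treg replicate), and the Mthfd1l call also ended with no filter on low values (0.0522). Beside this, CD8 T and NK cell markers (5 genes) summed to 7.34 to 8.19 TPM in Srci1 Treg and 19.7 to 21.3 TPM in DMSO Treg libraries, with Ncr1 at 0 in all 15. Within this list Prf1 fell (2.09 TPM in Srci1 Treg and 15.8 TPM in DMSO Treg), Cd8a rose (0.793 TPM in Srci1 Treg and 0.24 TPM in DMSO Treg, adjusted p = 0.0324) and Cd8b1 did not pass the test (4.79 TPM in Srci1 Treg and 4.33 TPM in DMSO Treg). Hba-a1, a haemoglobin gene, averaged 20.8 TPM in Srci1 Treg and 2.17 TPM in DMSO Treg libraries (2.82 ± 0.30, adjusted p = 1.3e-05), and Cd3d (-0.37) and Cd3g (-0.32) fell. Their part in the result was not tested.

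In TH17 cells the same compound gave a mixed picture. With Srci1, 15 members rose, against 33.8% of all genes, and 3 fell, against 7.08%. These shares (40.5% and 8.11% of the 37) were close to the background, and the median difference of 0.31 stood beside 0.21 over all genes. Trib3 and Nupr1 rose and Vldlr fell by at least 1. Under median-of-ratios scaling 6 members rose and 5 fell, and under quantile normalization 10 rose and 6 fell. Nupr1, Psat1, Sesn2, Slc38a2 and Trib3 were called higher, and Eif4ebp1, Slc1a5 and Vldlr lower, in each alternative that tested them and each fit without 1 library. Vldlr was not tested under the filter of 5 TPM. The rises of Atf4 (adjusted p = 0.795), Phgdh (0.207), Mthfd2 (0.161), Shmt2 (0.613) and Slc7a5 (0.404) ended under median-of-ratios scaling. Leaving out single libraries ended the rises of Gpt2 (highest adjusted p = 0.119, without Srci1 TH17 replicate 3; also without replicate 1, or DMSO TH17 replicate 2 or 3), Aldh18a1 (0.149, without DMSO TH17 replicate 3; also without any Srci1 TH17 replicate), Eif2ak3 (0.0604, without Srci1 TH17 replicate 1; also without DMSO TH17 replicate 3) and Cebpg (0.0664, without Srci1 TH17 replicate 3). Beside this, CD8 T and NK markers summed to 9.39 to 14 TPM in Srci1 TH17 and 7.13 to 8.84 TPM in DMSO TH17 libraries. Of these, Cd8a (0.63, from 0.0167 TPM in DMSO TH17 to 0.583 TPM in Srci1 TH17) and Prf1 (3.29 TPM in Srci1 TH17 and 0.753 TPM in DMSO TH17) rose. Cd8b1, the largest part of the sum, did not pass the test (7.93 TPM in Srci1 TH17 and 7.23 TPM in DMSO TH17). Hba-a1 averaged 4.27 TPM in Srci1 TH17 and 0.323 TPM in DMSO TH17 libraries (2.04 ± 0.30, adjusted p = 0.000141), while 3 of the 5 CD4 T cell genes fell, Cd3d (-0.45), Cd3g (-0.68) and Cd4 (-0.51). Their part in the result was not tested.

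STAT3 KO TH17 cells had lower levels of most members. Of the 37 genes, 22 fell, against 18.9% of all genes, and 4 rose, against 30.9%. The median difference was -0.37, against 0.13 over all genes. Asns, Vldlr, Eif4ebp1, Atf3, Pycr1, Ddit4, Cebpb and Trib3 fell by at least 1. All 22 falls were also called under both other scalings, and Phgdh was the only member called higher under all 3. The rise of Bcat1 ended without DMSO TH17 replicate 2 (adjusted p = 0.0626), that of Eif2ak3 without DMSO TH17 replicate 3 (0.104) or STAT3 KO TH17 replicate 2 (0.1) or 3 (0.0597), and that of Sesn2 in 13 of 15 fits without 1 library (up to 0.158). The fall of Cebpg ended without STAT3 KO TH17 replicate 1 (0.0879) or 3 (0.0572), or DMSO TH17 replicate 2 (0.055) or 3 (0.0862). The B cell genes Cd79a and Cd79b rose, with Cd79b at 8.1 TPM in STAT3 KO TH17 and 0.25 TPM in DMSO TH17 libraries. CD8 T and NK markers (5 genes) summed to 17.6 to 21.1 TPM in STAT3 KO TH17 and 7.13 to 8.84 TPM in DMSO TH17 libraries. Of these, Cd8a (2.49) and Prf1 (2.07) rose, and Cd8b1 did not pass the test (0.22). Myeloid and dendritic markers (6 genes) summed to 2.54 to 2.82 TPM in STAT3 KO TH17 and 0.31 to 1.29 TPM in DMSO TH17 libraries. Most of the knockout sum was Itgam, at 2.46 TPM in STAT3 KO TH17 and 0.137 TPM in DMSO TH17 libraries. Cd14 and Ncr1 were at 0 in the STAT3 KO TH17 libraries, while Cd14 averaged 0.52 TPM in DMSO TH17 libraries. Among the CD4 T cell genes, Cd3e (1.00), Cd3g (0.49) and Cd3d (0.34) rose, Cd4 (-0.38) fell and Trac did not pass the test. Their part in the result was not tested.

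Under DMSO, Treg cells had higher levels than TH17 cells. Of the 37 genes, 29 were higher in Treg cells, against 32.3% of all genes, and only Ddit4 was lower, against 12.5%. The median difference was 0.61, against 0.18 over all genes. Atf3, Cth, Phgdh, Chac1, Nupr1, Gpt2, Slc7a1, Slc1a4, Mthfd2, Bcat1 and Psat1 were higher by at least 1. Each of the other scalings called 22 members higher and 4 lower, and 19 of the 29 were called in each alternative that tested them and each fit without 1 library. Among these 19, Chac1 was not tested under the filter of 5 TPM. Atf4 was not among these 19, since its call ended under median-of-ratios scaling (adjusted p = 0.937), and the call of Ddit4 ended without DMSO TH17 replicate 2 (0.0629). So did those of Pycr1 without DMSO TH17 replicate 3 (0.0557), of Eif2ak4 and Mthfd1l without that library (0.142 and 0.159) or any DMSO Treg replicate, and of Shmt1 in 12 of 15 fits without 1 library (up to 0.186). CD8 T and NK markers summed to 19.7 to 21.3 TPM in DMSO Treg and 7.13 to 8.84 TPM in DMSO TH17 libraries; Prf1 was higher in Treg (3.27) and Cd8b1 lower (-0.63). Hba-a1 averaged 2.17 TPM in DMSO Treg and 0.323 TPM in DMSO TH17 libraries (1.28 ± 0.30, adjusted p = 0.00315). Their part in the result was not tested. This comparison and those of Srci1 within Treg and within TH17 cells share DMSO libraries, so their directions for a gene are not independent of each other.

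The Srci1 effect itself differed between the cell types. The effect in TH17 cells minus that in Treg cells was positive and called for 28 of 37 members, against 11.3% of all genes, and negative for 0, against 2.95%, with 0 also at an unadjusted p under 0.05. The median of this difference was 0.65, against 0.13 over all genes. Of the 28, 22 were called under both other scalings, which called 22 and 25, and 19 in each alternative that tested them and each fit without 1 library. Among these 19, Chac1 was not tested under the filter of 5 TPM. Leaving out 1 library ended the calls of Slc1a5 (0.0502, without Srci1 TH17 replicate 3), and in 6 to 11 of 15 fits those of Aldh18a1, Cebpg, Slc38a2, Eif2ak3 and Eif4ebp1 (up to 0.0983). Nupr1, Psat1, Sesn2 and Trib3 rose with Srci1 in TH17 and fell with it in Treg cells under all 3 scalings. Among the markers, Prf1 had a positive difference of effects (3.74 ± 0.20, adjusted p = 7.37e-08) and Cd3g a negative one (-0.37 ± 0.08, adjusted p = 0.00635), and their part was not tested.

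**Figure D3:**
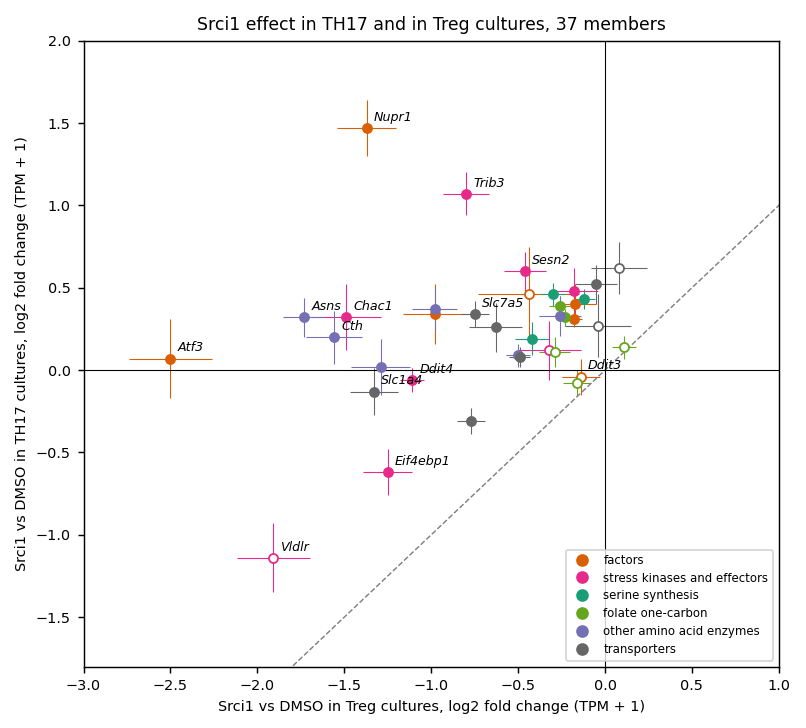
Srci1 effect on each tested member in Treg cells and in TH17 cells, each as the difference in mean log2(TPM + 1) from DMSO, with the dashed line marking equal effects and filled points the 28 members whose 2 effects differed (limma adjusted p under 0.05). The filled points all lie on the side where the TH17 effect is the higher one.

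Set directly against each other, Srci1 TH17 libraries had higher levels than STAT3 KO TH17 libraries for 29 of 37 members, against 30.6% of all genes, and lower levels for Phgdh alone, against 18.4%. The median difference was 0.74, against 0.11 over all genes, and Asns had the largest with a pseudocount of 1 (2.98 ± 0.12, adjusted p = 1.88e-10). With a pseudocount of 0.1 the difference of Vldlr was 3.64 and that of Asns 3.16. The median-of-ratios and quantile scalings called 26 and 24 members higher and 3 lower each. Leaving out 1 library ended the calls of Slc7a6 (0.0665 without STAT3 KO TH17 replicate 1 and 0.0512 without Srci1 TH17 replicate 3), Slc38a2 (0.0512 without STAT3 KO TH17 replicate 3) and Slc38a1 (up to 0.112, without STAT3 KO TH17 or Srci1 TH17 replicate 1 or 3), and in 10 and 11 of 15 fits those of Atf5 and Sesn2 (up to 0.206). The B cell genes Cd79a and Cd79b were lower, with Cd79b at 0.497 TPM in Srci1 TH17 and 8.1 TPM in STAT3 KO TH17 libraries. Itgam averaged 0.19 TPM in Srci1 TH17 and 2.46 TPM in STAT3 KO TH17 libraries, Cd8a 0.583 TPM in Srci1 TH17 and 4.74 TPM in STAT3 KO TH17 libraries, and Prf1, Cd3e, Cd3d and Cd3g were also lower. Cd8b1 did not pass the test (7.93 TPM in Srci1 TH17 and 8.66 TPM in STAT3 KO TH17). Hba-a1 averaged 4.27 TPM in Srci1 TH17 and was listed at 0 in all 3 STAT3 KO TH17 libraries. Their part in the result was not tested.

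**Figure D4:**
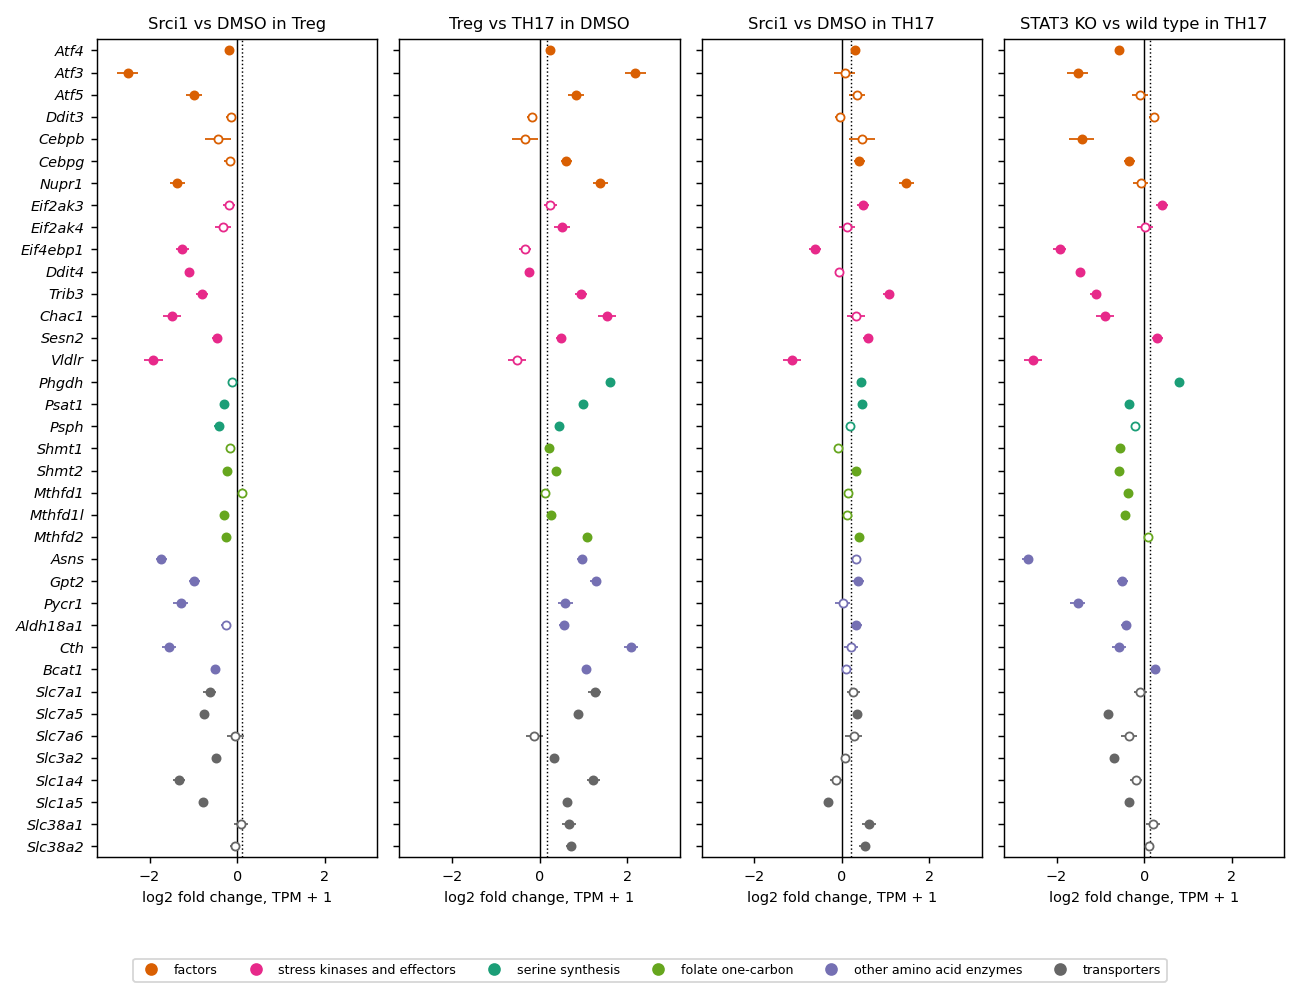
Difference in mean log2(TPM + 1) of each tested member in 4 comparisons (from left, Srci1 against DMSO in Treg, Treg against TH17 under DMSO, Srci1 against DMSO in TH17, and STAT3 KO against wild type in TH17), with standard errors as bars, called members filled, and the median of all genes dotted. Called members lie left of 0 in the Treg panel for Srci1 and mostly right of 0 in the panel of Treg against TH17.

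Among the transcription factors, Atf4, the hub of the response, had a high and narrowly spread mRNA. Atf4 was at 201.9, 206.7 and 195.2 TPM in Srci1 Treg and 231.7, 229.9 and 221.7 TPM in DMSO Treg libraries. It was at 239.7, 246.6 and 235.4 TPM in Srci1 TH17, 135.9, 121.3 and 131.3 TPM in STAT3 KO TH17 and 189.5, 191.1 and 201 TPM in DMSO TH17 libraries. The STAT3 KO libraries lay below all others and the Srci1 TH17 libraries above all others. The knockout difference was -0.58 ± 0.05, adjusted p = 5.26e-07, and held in each alternative. The differences with Srci1 were -0.18 ± 0.05, adjusted p = 0.022 in Treg cells and 0.31 ± 0.05, adjusted p = 0.00043 in TH17 cells, of which the second ended under median-of-ratios scaling and the first without single libraries, as given above.

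Atf3 encodes a stress-induced factor, and its promoter holds the core. Its level was 5.5, 3.21 and 2.37 TPM in Srci1 Treg and 22, 32.5 and 20.5 TPM in DMSO Treg libraries, a difference of -2.50 ± 0.24, adjusted p = 5.49e-06. In TH17 cultures it was 5.57, 4.54 and 4.62 TPM with Srci1, 0.62, 1 and 1.32 TPM without STAT3 and 4.12, 5.83 and 4.09 TPM in DMSO TH17 libraries. The DMSO Treg libraries stood above all others (2.18 ± 0.24, adjusted p = 5.78e-06 against DMSO TH17) and the STAT3 KO libraries below all others (-1.52 ± 0.24, adjusted p = 0.000114), while the Srci1 and DMSO TH17 libraries overlapped (0.07 ± 0.24, adjusted p = 0.851). The Srci1 effects in the 2 cell types differed by 2.56 ± 0.34, adjusted p = 0.000212.

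Nupr1, a small chromatin-associated stress protein, also has the core in its promoter. It was at 5.76, 5.34 and 5.03 TPM in Srci1 Treg and 17.1, 13.6 and 15.9 TPM in DMSO Treg libraries, but at 18.1, 15.2 and 16.4 TPM in Srci1 TH17, 6.99, 3.81 and 4.56 TPM in STAT3 KO TH17 and 5.75, 4.42 and 5.88 TPM in DMSO TH17 libraries. The DMSO Treg and Srci1 TH17 libraries overlapped at the high end, and the other 3 groups overlapped at the low end. The compound thus lowered Nupr1 in Treg cells (-1.37 ± 0.17, adjusted p = 5.1e-05) and raised it in TH17 cells (1.47 ± 0.17, adjusted p = 1.96e-05), a difference in effect of 2.85 ± 0.24, adjusted p = 5.08e-06. The knockout difference did not pass the test (-0.08 ± 0.17, adjusted p = 0.73).

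Cebpb encodes a C/EBP factor that can pair with ATF4. It was at 9.33, 11.4 and 12.6 TPM in Srci1 Treg and 21.2, 11.6 and 14.5 TPM in DMSO Treg libraries, and at 23.2, 30.5 and 27.9 TPM in Srci1 TH17, 6.92, 5.86 and 6.99 TPM in STAT3 KO TH17 and 10.6, 22.6 and 30 TPM in DMSO TH17 libraries. The DMSO TH17 libraries were widely spread, yet the STAT3 KO libraries lay below them (-1.43 ± 0.29, adjusted p = 0.000961). Of the other factors, Cebpg, which encodes another partner of ATF4, averaged 11 ± 0.791 TPM in STAT3 KO TH17 and 14.2 ± 1.23 TPM in DMSO TH17 libraries. Atf5, a related stress factor, averaged 8.03 ± 1.05 TPM in Srci1 Treg and 16.8 ± 2.12 TPM in DMSO Treg libraries (-0.98 ± 0.18, adjusted p = 0.00105).

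Ddit3 encodes CHOP, a factor tied to prolonged stress and cell death. It was at 31.3, 32.3 and 34.4 TPM in Srci1 Treg and 34.1, 35.9 and 38.2 TPM in DMSO Treg libraries, and at 49, 33 and 39.2 TPM in Srci1 TH17, 47, 48.5 and 48.3 TPM in STAT3 KO TH17 and 42.3, 39 and 41.5 TPM in DMSO TH17 libraries. Srci1 and DMSO libraries overlapped in both cell types, while the STAT3 KO libraries were above DMSO TH17. It was the only factor called in none of the 4 comparisons with a shared DMSO group, and its knockout difference was 0.22 ± 0.11, adjusted p = 0.105, short of the threshold. Ddit3 shares exon bases with Mars on the other strand, and the strand setting of the counting is not given in the sources used here; the same holds for 9 other members with an overlapping gene, among them Atf5, Cebpb, Psph, Shmt1 and Shmt2.

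Of the stress kinases and effectors, 6 of 8 fell with Srci1 in Treg cells, against 10.0% of all genes, and the other scalings called 7 and 8. Trib3, a pseudokinase that inhibits ATF4, was at 12.3, 11.6 and 12.5 TPM in Srci1 Treg and 22.6, 19.1 and 24.2 TPM in DMSO Treg libraries. It was at 21, 27.2 and 23.7 TPM in Srci1 TH17, 4.5, 4.02 and 4.89 TPM in STAT3 KO TH17 and 9.17, 11.9 and 11.6 TPM in DMSO TH17 libraries. Within TH17 cells the 3 groups did not overlap, with Srci1 above DMSO (1.07 ± 0.13, adjusted p = 2.54e-05) and the knockout below it (-1.11 ± 0.13, adjusted p = 5.7e-06). In Treg cells Srci1 gave -0.80 ± 0.13, adjusted p = 0.000396.

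Ddit4 encodes REDD1, an inhibitor of mTORC1. It was at 86.2, 84 and 88.2 TPM in Srci1 Treg and 189.8, 182.5 and 188.1 TPM in DMSO Treg libraries, and at 194.4, 218.5 and 219.2 TPM in Srci1 TH17, 75.3, 82.7 and 79.6 TPM in STAT3 KO TH17 and 206, 240.2 and 213.5 TPM in DMSO TH17 libraries. All Srci1 Treg and STAT3 KO TH17 libraries lay below every library of the other 3 groups, and Srci1 TH17 and DMSO TH17 libraries overlapped. The differences were -1.11 ± 0.07, adjusted p = 6.52e-08 for Srci1 in Treg cells and -1.46 ± 0.07, adjusted p = 4.67e-10 for the knockout, against -0.06 ± 0.07, adjusted p = 0.502 for Srci1 in TH17 cells.

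Chac1 encodes a glutathione-degrading enzyme and was low. It was at 0.82, 1.54 and 1.7 TPM in Srci1 Treg and 4.29, 6.07 and 6.43 TPM in DMSO Treg libraries, and at 1.51, 2.54 and 1.51 TPM in Srci1 TH17, 0.15, 0.16 and 0.35 TPM in STAT3 KO TH17 and 1.3, 1.47 and 1 TPM in DMSO TH17 libraries. DMSO Treg libraries lay above all others and STAT3 KO libraries below all others. Srci1 in Treg cells gave -1.49 ± 0.20, adjusted p = 9.13e-05 and the knockout -0.89 ± 0.20, adjusted p = 0.0019.

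Vldlr, a lipoprotein receptor gene known as an ATF4 target, was nearly silent in 2 groups. It was at 0.12, 0.17 and 0.13 TPM in Srci1 Treg and 3.29, 4.17 and 2.55 TPM in DMSO Treg libraries. It was at 1.91, 2.12 and 1.33 TPM in Srci1 TH17, 0.06, 0.07 and 0.02 TPM in STAT3 KO TH17 and 5.7, 7.07 and 3.2 TPM in DMSO TH17 libraries. Every Srci1 Treg and STAT3 KO library lay far below every library of the other 3 groups, and Srci1 TH17 libraries were below both DMSO groups. Vldlr fell in all 3 comparisons with DMSO: -1.91 ± 0.21, adjusted p = 2.3e-05 for Srci1 in Treg, -1.14 ± 0.21, adjusted p = 0.000992 for Srci1 in TH17 and -2.54 ± 0.21, adjusted p = 2.85e-07 for the knockout.

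Eif4ebp1 encodes 4E-BP1, a repressor of cap-dependent translation. It was at 28.1, 30.8 and 31 TPM in Srci1 Treg and 67.7, 73.2 and 76.5 TPM in DMSO Treg libraries, and at 48.7, 70.3 and 60.5 TPM in Srci1 TH17, 26, 23.1 and 20.6 TPM in STAT3 KO TH17 and 77.7, 91 and 107.4 TPM in DMSO TH17 libraries. No Srci1 or knockout library reached the DMSO libraries of its own cell type. The differences were -1.25 ± 0.14, adjusted p = 1.71e-05, -0.62 ± 0.14, adjusted p = 0.0028 and -1.93 ± 0.14, adjusted p = 3.89e-08 for Srci1 in Treg, Srci1 in TH17 and the knockout. Sesn2, a leucine sensor that restrains mTORC1, averaged 7.33 ± 0.435 TPM in Srci1 Treg and 10.5 ± 0.716 TPM in DMSO Treg libraries (-0.46 ± 0.12, adjusted p = 0.00931), but 11.4 ± 0.276 TPM in Srci1 TH17 and 7.2 ± 0.815 TPM in DMSO TH17 libraries (0.60 ± 0.12, adjusted p = 0.0012). The kinase genes Eif2ak3 and Eif2ak4 did not pass the test for Srci1 in Treg cells (-0.18 ± 0.14, adjusted p = 0.369 and -0.32 ± 0.18, adjusted p = 0.215). For both genes, however, every Srci1 Treg library lay below every DMSO Treg library. Eif2ak3 averaged 10.6 ± 0.33 TPM in Srci1 Treg and 12.1 ± 0.193 TPM in DMSO Treg libraries. Eif2ak4 averaged 8 ± 0.787 TPM in Srci1 Treg and 10.3 ± 0.665 TPM in DMSO Treg libraries. Quantile normalization called all 8 stress kinases and effectors lower, both kinases included.

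**Figure D5:**
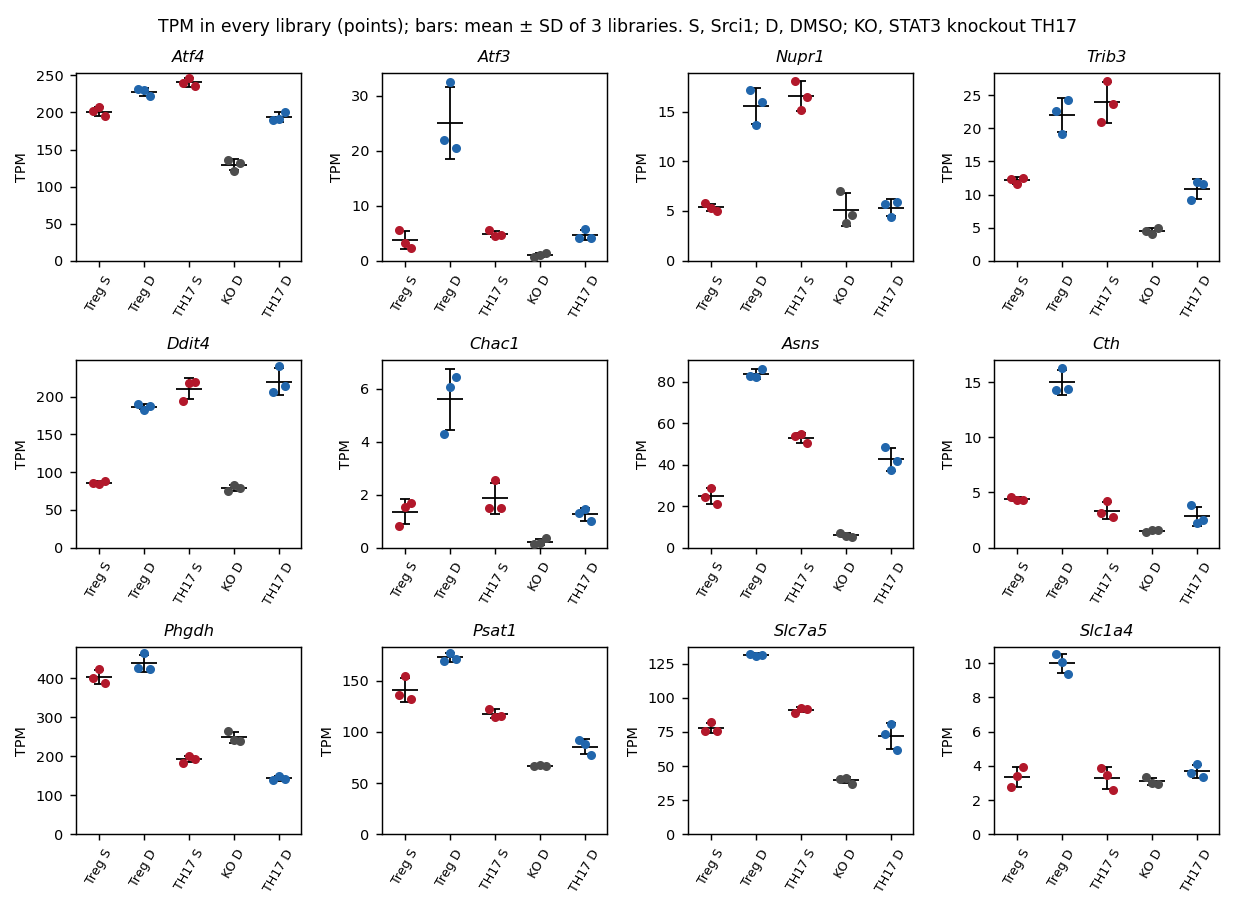
TPM of members in each library (points) with the mean and SD of the 3 libraries of each group (bars), for 12 members on linear axes from 0. Asns, Atf3 and Trib3 are lowest in the STAT3 KO TH17 libraries, while Phgdh is lowest in DMSO TH17.

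In serine synthesis, Phgdh, the enzyme of the first step from the glycolytic intermediate 3-phosphoglycerate, had its highest TH17 level in the knockout. It was at 399.1, 422 and 388.1 TPM in Srci1 Treg and 426.5, 463.1 and 422.4 TPM in DMSO Treg libraries. It was at 183.8, 201.2 and 193.2 TPM in Srci1 TH17, 263.4, 241.3 and 239.6 TPM in STAT3 KO TH17 and 138.1, 149.2 and 142.3 TPM in DMSO TH17 libraries. The 2 Treg groups were above all TH17 libraries, and within TH17 the 3 groups did not overlap. The knockout raised it (0.79 ± 0.06, adjusted p = 8.31e-08), and it was higher in Treg than in TH17 cells under DMSO (1.60 ± 0.06, adjusted p = 7.62e-11); both calls held in each alternative. Srci1 in Treg cells did not change it past the test (-0.12 ± 0.06, adjusted p = 0.162). Those 2 groups did not overlap, though narrowly, and quantile normalization called all 3 serine synthesis genes lower, Phgdh included.

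Psat1, the aminotransferase of the second step, was at 135.8, 154.1 and 132.2 TPM in Srci1 Treg and 168.9, 177.2 and 171.4 TPM in DMSO Treg libraries. It was at 122.5, 114.7 and 115.9 TPM in Srci1 TH17, 66.5, 67.7 and 66.4 TPM in STAT3 KO TH17 and 91.7, 88 and 77.3 TPM in DMSO TH17 libraries. In contrast to Phgdh, its STAT3 KO libraries were the lowest of all (-0.35 ± 0.07, adjusted p = 0.000986). Srci1 lowered it in Treg cells (-0.30 ± 0.07, adjusted p = 0.00771) and raised it in TH17 cells (0.46 ± 0.07, adjusted p = 0.000242). Psph, the phosphatase of the last step, averaged 25.6 ± 1.31 TPM in STAT3 KO TH17 and 29.8 ± 3.05 TPM in DMSO TH17 libraries, which overlapped (-0.21 ± 0.10, adjusted p = 0.0966). Both other scalings called Psph lower in the knockout. With Srci1 in Treg cells it fell (-0.42), averaging 30.7 ± 4.18 TPM in Srci1 Treg and 41 ± 1.09 TPM in DMSO Treg libraries.

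Of the folate one-carbon enzymes, 4 of 5 fell in the knockout, against 18.9% of all genes: Shmt1, Shmt2, Mthfd1 and Mthfd1l, as under both other scalings. Shmt2, which moves a one-carbon unit from serine to folate in mitochondria, averaged 118.1 ± 3.6 TPM in STAT3 KO TH17 and 177.4 ± 7.7 TPM in DMSO TH17 libraries (-0.58 ± 0.05, adjusted p = 3.24e-07). The exception, Mthfd2, the mitochondrial dehydrogenase of the next step, was at 73.5, 72.9 and 72.9 TPM in Srci1 TH17, 61.5, 58.5 and 57.6 TPM in STAT3 KO TH17 and 59.9, 56.2 and 51.2 TPM in DMSO TH17 libraries. Its knockout and DMSO libraries overlapped (0.09 ± 0.06, adjusted p = 0.284). In Treg cultures Mthfd2 was at 96.7, 104.7 and 96 TPM with Srci1 and 116.2, 116.7 and 123.5 TPM with DMSO, all above every TH17 library (1.08 ± 0.06, adjusted p = 1.14e-08 for Treg against TH17 under DMSO). The cytosolic enzymes Shmt1 and Mthfd1 did not pass the test for Srci1 in either cell type under the TPM as deposited. With Srci1 in Treg cells 3 of the 5 enzymes fell, against 10.0% of all genes, and the other scalings called 3 and 4. With Srci1 in TH17 cells 0 fell, against 7.08% of all genes, and each other scaling called 1.

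Asns, which makes asparagine, had the largest knockout fall of the members with a pseudocount of 1. With a pseudocount of 0.1 the difference was -5.12 for the low gene Vldlr and -2.83 for Asns. Asns was at 24.3, 28.7 and 21 TPM in Srci1 Treg and 82.7, 82.3 and 86.5 TPM in DMSO Treg libraries, and at 53.7, 55.1 and 50.4 TPM in Srci1 TH17, 7, 5.66 and 5.08 TPM in STAT3 KO TH17 and 48.4, 37.7 and 41.6 TPM in DMSO TH17 libraries. All 5 groups were free of overlap in the order DMSO Treg, Srci1 TH17, DMSO TH17, Srci1 Treg and STAT3 KO TH17. The knockout gave -2.66 ± 0.12, adjusted p = 5.53e-10 and Srci1 in Treg cells -1.73 ± 0.12, adjusted p = 3.43e-07, while Srci1 in TH17 cells gave 0.32 ± 0.12, adjusted p = 0.0557, which did not pass the threshold.

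Pycr1, which makes proline, was at 2.39, 3.21 and 2.57 TPM in Srci1 Treg and 7.55, 8.51 and 8.22 TPM in DMSO Treg libraries, and at 5.51, 5.33 and 4.54 TPM in Srci1 TH17, 0.97, 1.02 and 1.33 TPM in STAT3 KO TH17 and 7.11, 4.48 and 3.96 TPM in DMSO TH17 libraries. The knockout libraries were lowest (-1.52 ± 0.17, adjusted p = 4.68e-06), and Srci1 lowered it in Treg cells (-1.29 ± 0.17, adjusted p = 8.83e-05) with an overlap in TH17 cells (0.02 ± 0.17, adjusted p = 0.953). Aldh18a1, the enzyme before it in proline synthesis, averaged 42.9 ± 5.98 TPM in STAT3 KO TH17 and 58.2 ± 10.1 TPM in DMSO TH17 libraries, a call that ended when the fit held the compared groups alone (adjusted p = 0.0733).

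Cth, which makes cysteine from cystathionine, was at 4.62, 4.3 and 4.36 TPM in Srci1 Treg and 14.3, 16.3 and 14.4 TPM in DMSO Treg libraries, and at 3.11, 4.25 and 2.73 TPM in Srci1 TH17, 1.42, 1.58 and 1.58 TPM in STAT3 KO TH17 and 3.82, 2.2 and 2.47 TPM in DMSO TH17 libraries. DMSO Treg libraries stood well above every other library (2.08 ± 0.16, adjusted p = 1.72e-07 against DMSO TH17, and -1.56 ± 0.16, adjusted p = 1.08e-05 for Srci1 in Treg). Gpt2, a mitochondrial alanine aminotransferase, showed the same order of its extremes. Gpt2 was at 3.75, 3.3 and 3.35 TPM in Srci1 Treg and 8.09, 7.88 and 7.41 TPM in DMSO Treg libraries, and at 3.8, 3.16 and 4.14 TPM in Srci1 TH17, 1.73, 1.36 and 1.6 TPM in STAT3 KO TH17 and 3.16, 2.47 and 2.27 TPM in DMSO TH17 libraries. Its Treg against TH17 difference was 1.28 ± 0.13, adjusted p = 2.35e-06. Its rise with Srci1 in TH17 cells, where the groups overlapped, ended under both other scalings (adjusted p = 0.299 and 0.34).

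Bcat1, which starts the breakdown of branched-chain amino acids, was at 37.6, 38.8 and 39 TPM in Srci1 Treg and 56.2, 56 and 52.1 TPM in DMSO Treg libraries, and at 28.9, 25 and 28.4 TPM in Srci1 TH17, 31.2, 29.7 and 30.3 TPM in STAT3 KO TH17 and 26.6, 24.1 and 26.3 TPM in DMSO TH17 libraries. Both Treg groups were above all TH17 libraries (1.06 ± 0.07, adjusted p = 4.32e-08 under DMSO), and Srci1 lowered Bcat1 in Treg cells (-0.50 ± 0.07, adjusted p = 0.000199).

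Of the 8 transporters tested, 5 fell with Srci1 in Treg cells, against 10.0% of all genes, and 5 did under each other scaling. Under DMSO, 7 were higher in Treg than in TH17 cells, against 32.3% of all genes, and the other scalings called 6 and 7. Slc7a5 carries large neutral amino acids such as leucine together with the heavy chain encoded by Slc3a2. It was at 75.7, 82.4 and 75.8 TPM in Srci1 Treg and 132.3, 130.3 and 131.7 TPM in DMSO Treg libraries, and at 89, 92.7 and 91.7 TPM in Srci1 TH17, 40.9, 41.6 and 37.3 TPM in STAT3 KO TH17 and 73.3, 80.9 and 61.8 TPM in DMSO TH17 libraries. STAT3 KO libraries were lowest (-0.83 ± 0.08, adjusted p = 1.71e-06), DMSO Treg libraries highest (0.87 ± 0.08, adjusted p = 1.6e-06), and Srci1 Treg libraries overlapped DMSO TH17 (-0.75 ± 0.08, adjusted p = 2.15e-05 for Srci1 in Treg). Slc3a2 fell likewise in both: it averaged 109.0 ± 6.09 TPM in Srci1 Treg and 153.2 ± 4.11 TPM in DMSO Treg libraries (-0.49 ± 0.06, adjusted p = 5.63e-05), and 74.5 ± 5.27 TPM in STAT3 KO TH17 and 120.5 ± 2.75 TPM in DMSO TH17 libraries (-0.69 ± 0.06, adjusted p = 4.29e-07).

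Slc1a4, a carrier of serine, alanine and threonine, was at 2.79, 3.39 and 3.95 TPM in Srci1 Treg and 10.5, 10 and 9.39 TPM in DMSO Treg libraries. In TH17 cultures it was at 3.87, 3.46 and 2.57 TPM with Srci1, 3.35, 3.01 and 2.94 TPM without STAT3 and 3.59, 4.11 and 3.37 TPM in DMSO TH17 libraries. DMSO Treg stood alone above the other 4 groups (-1.33 ± 0.14, adjusted p = 1.24e-05 for Srci1 in Treg, 1.23 ± 0.14, adjusted p = 8.46e-06 against DMSO TH17). Slc7a1, a carrier of arginine and lysine, was at 46.6, 48.1 and 50.1 TPM in Srci1 Treg and 74, 79.1 and 73.3 TPM in DMSO Treg libraries, and at 38.1, 37.4 and 36.8 TPM in Srci1 TH17, 27.7, 32.9 and 27.1 TPM in STAT3 KO TH17 and 37.6, 35.4 and 22.3 TPM in DMSO TH17 libraries. Both Treg groups exceeded all TH17 libraries (1.26 ± 0.15, adjusted p = 9.84e-06 under DMSO), among which DMSO TH17 replicate 3 was lowest. That library was the lowest of its group for 20 of the 38 members.

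Slc1a5, a glutamine carrier, fell in all 3 comparisons with DMSO, of which those in TH17 cells share DMSO libraries. It averaged 135.9 ± 8.83 TPM in Srci1 Treg and 232.6 ± 13.2 TPM in DMSO Treg libraries (-0.77 ± 0.08, adjusted p = 1.61e-05), and 121.9 ± 10.4 TPM in Srci1 TH17, 118.6 ± 10.6 TPM in STAT3 KO TH17 and 151.0 ± 9.19 TPM in DMSO TH17 libraries (-0.31 ± 0.08, adjusted p = 0.00977 for Srci1 and -0.35 ± 0.08, adjusted p = 0.00323 for the knockout). The glutamine carriers Slc38a1 and Slc38a2 instead averaged 61.6 ± 6.07 and 65 ± 4.39 TPM in Srci1 TH17, against 40.5 ± 9.93 and 45.5 ± 8.13 TPM in DMSO TH17 libraries, and rose (0.62 ± 0.16, adjusted p = 0.00615 and 0.52 ± 0.12, adjusted p = 0.00377). The Slc38a1 call ended when the fit held the compared groups alone (adjusted p = 0.0581). Slc7a6, another cationic and neutral amino acid carrier, was called in none of the 4 comparisons with DMSO groups. Slc7a11 was at 0.03, 0.08 and 0.02 TPM in Srci1 Treg and 0.27, 0.63 and 0.27 TPM in DMSO Treg libraries, at 0.11, 0.2 and 0.08 TPM in Srci1 TH17 and 0.02, 0.03 and 0.03 TPM in DMSO TH17 libraries, and was listed at 0 in all 3 STAT3 KO TH17 libraries.

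Further genes of the pathway were read from the same fit, of which 95 of 102 in 7 lists were tested. The cytosolic aminoacyl-tRNA synthetases, which load amino acids onto tRNAs, were mostly lower in the knockout: 16 of 20 fell, against 18.9% of all genes, and 1 rose, against 30.9%, and the other scalings called 17 and 16 lower and 1 higher. Their median was -0.53, against 0.13 over all genes. Cars averaged 25.2 ± 0.399 TPM in STAT3 KO TH17 and 42.1 ± 0.36 TPM in DMSO TH17 libraries (-0.72 ± 0.06, adjusted p = 1.42e-07). Sars averaged 151.1 ± 7.37 TPM in STAT3 KO TH17 and 250.5 ± 23.9 TPM in DMSO TH17 libraries (-0.72 ± 0.08, adjusted p = 2.82e-06). With Srci1 in Treg cells 7 fell, against 10.0% of all genes, and 1 rose, against 17.1%, while each other scaling called 13 lower and 0 higher. The median was -0.13, against 0.11 over all genes, and the smallest adjusted p were those of Cars (-0.46 ± 0.06, adjusted p = 4.87e-05) and Sars (-0.54 ± 0.08, adjusted p = 0.000179). With Srci1 in TH17 cells 9 rose, against 33.8% of all genes, and 0 fell, against 7.08%, but the direction turned under scaling, with 1 higher and 6 lower under median-of-ratios and 1 higher and 3 lower under quantile normalization.

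Other genes that read or use amino acids did not move as a block. In the knockout, Sesn1, a sensor that restrains mTORC1, averaged 74 ± 9.39 TPM, against 12.2 ± 1.91 TPM in DMSO TH17 libraries (2.50 ± 0.11, adjusted p = 2.63e-10), while Castor1, an arginine sensor, averaged 7.53 ± 2.11 TPM in STAT3 KO TH17 and 37.2 ± 2.64 TPM in DMSO TH17 libraries (-2.19 ± 0.14, adjusted p = 1.19e-08). Of the 16 amino acid sensing and mTORC1 genes tested, 5 rose, against 30.9% of all genes, and 4 fell, against 18.9%, shares near the background; median-of-ratios scaling called 3 higher and 4 lower, and quantile normalization 5 and 4. Odc1, the first enzyme of polyamine synthesis, averaged 279.6 ± 13.8 TPM in STAT3 KO TH17 and 642.3 ± 17.7 TPM in DMSO TH17 libraries (-1.20 ± 0.05, adjusted p = 4.64e-10). All 4 transcription factors of growth and stress that were listed fell in the knockout, against 18.9% of all genes, also under both other scalings. They included Hif1a (-2.25 ± 0.15, adjusted p = 1.72e-08) and Myc (-0.68 ± 0.05, adjusted p = 1.07e-07), which encode HIF-1α and MYC. Mycn, also among the 4, was low, at 0.177 ± 0.0651 TPM in STAT3 KO TH17 and 1.28 ± 0.323 TPM in DMSO TH17 libraries.

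With Srci1, Ahcy, which clears S-adenosylhomocysteine in the methionine cycle, rose in Treg and in TH17 cells. It averaged 323.5 ± 12.5 TPM in Srci1 Treg and 254.1 ± 3.42 TPM in DMSO Treg libraries (0.35 ± 0.04, adjusted p = 6.14e-05), and 607.1 ± 5.88 TPM in Srci1 TH17 and 235.1 ± 8 TPM in DMSO TH17 libraries (1.37 ± 0.04, adjusted p = 1.11e-10). Slc6a9, a glycine transporter, fell in Treg cells, averaging 2.84 ± 1.65 TPM in Srci1 Treg and 12.4 ± 1.03 TPM in DMSO Treg libraries (-1.88 ± 0.30, adjusted p = 0.000412). Between the cell types under DMSO, Gldc, the glycine decarboxylase that also feeds folate with one-carbon units, averaged 4.57 ± 0.258 TPM in DMSO Treg and 0.05 ± 0.0173 TPM in DMSO TH17 libraries (2.41 ± 0.11, adjusted p = 9.01e-10), and Rragd, a Rag GTPase upstream of mTORC1, 20.6 ± 0.542 TPM in DMSO Treg and 6.42 ± 0.801 TPM in DMSO TH17 libraries (1.55 ± 0.10, adjusted p = 3.08e-08).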

How the data were processed

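Poly(A) RNA libraries were sequenced by the authors, who aligned reads with STAR 2.7.9a and quantified genes with RSEM 1.3.3 on GRCm38, per the submitters' processing notes; the sources used here give neither the annotation nor the strand setting. The deposited table holds TPM values of 55421 gene IDs in 15 libraries, and read counts and depth are unknown. All columns were mapped to samples by their names. A gene-name table gave symbols for 55154 of the IDs, GENCODE exons were used to find overlapping genes, and promoters were those of RefSeq (GRCm38.p6).

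The 12800 genes reaching 1 TPM in 3 or more libraries were kept, log2(TPM + 1) was computed, and limma 3.58.1 in R 4.3.3 fitted 5 group means with a trended prior (10 residual degrees of freedom), with Benjamini-Hochberg adjustment over all genes in each of 6 comparisons. Standard errors are those of limma, SDs are over 3 libraries. The fit was checked on simulated data. Members and gene lists were chosen with earlier results of these data known. Values in every library were given for Atf4, Ddit3, Asns, Phgdh and Slc7a5 and for members called with a log2 difference of at least 1 and no overlap between the groups in any of the first 4 comparisons; of other lists, up to 4 called genes per comparison with the smallest adjusted p were eligible. Alternatives were a pseudocount of 0.1, no filter, a filter of 5 TPM, median-of-ratios and quantile scaling, only the compared groups, the replicate number as a block, array weights, and leaving out each library. The summed levels of some marker lists are not reported here.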

Additional observations from a re-analysis of the deposited data

Results flagged for a closer look

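The effect of Srci1 differed between TH17 and Treg cells for 28 of 37 members by a test of the difference itself, the interaction term of limma, and each value is the effect in TH17 cells minus that in Treg cells on the log2 scale. It was at least 1 for Nupr1 (2.85), Atf3 (2.56), Asns (2.05), Trib3 (1.87), Chac1 (1.82), Cth (1.75), Gpt2 (1.35), Atf5 (1.32), Pycr1 (1.31), Slc1a4 (1.20), Slc7a5 (1.09), Sesn2 (1.06) and Ddit4 (1.05). It was smaller for Slc7a1 (0.90), Psat1 (0.75), Eif2ak3 (0.66), Mthfd2 (0.65), Eif4ebp1 (0.63), Psph (0.61), Bcat1 (0.59), Aldh18a1 (0.59), Cebpg (0.58), Slc3a2 (0.57), Slc38a2 (0.57), Shmt2 (0.55), Phgdh (0.54), Atf4 (0.49) and Slc1a5 (0.46). DMSO libraries of both cell types enter each value.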

How the results depend on the processing

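Over 6 comparisons 157 member calls were made. Of these, 26 were lost with their sign kept under median-of-ratios scaling. There 1 more, Shmt1 in Treg against TH17, was lost with its sign turned (limma adjusted p = 0.978). Losses numbered 23 under quantile normalization, 18 with only the compared groups, 15 without a filter, 4 with array weights and 1 with a pseudocount of 0.1. Calls were also gained, 16 under quantile normalization, 11 under median-of-ratios scaling, 7 with array weights and 3 with only the compared groups. A pseudocount of 0.1 and the filter of 5 TPM gained 1 each. The filter of 5 TPM left Chac1 and Vldlr untested. Under median-of-ratios scaling, 6 members were called higher and 5 lower for Srci1 in TH17, 2 higher in the knockout, 4 lower in Treg against TH17, and 3 lower for Srci1 against STAT3 KO. Under quantile normalization, 6 were lower for Srci1 in TH17, 1 higher in the knockout, 4 lower in Treg against TH17 and 3 lower for Srci1 against STAT3 KO. With only the compared groups 1 was higher in the knockout, and with array weights 2 were, with 2 lower in Treg against TH17 and 2 lower for Srci1 against STAT3 KO. The replicate numbers did not pair the libraries (2 of 30 same-numbered pairs correlated over 0.1, -0.171 to 0.128); the fit with the replicate block lost 3 and gained 2 calls, with 2 members lower in Treg against TH17. Shmt1 in Treg against TH17 turned to -0.01 under median-of-ratios scaling. The cause of these changes was not tested. With 1 library left out, members higher and lower numbered 12 to 17 and 3 to 3 (Srci1 in TH17), 2 to 4 and 21 to 23 (knockout), 0 to 0 and 23 to 26 (Srci1 in Treg), 26 to 29 and 0 to 3 (Treg against TH17), 22 to 28 and 0 to 0 (difference of Srci1 effects), and 25 to 30 and 1 to 2 (Srci1 against STAT3 KO). The knockout count of 4 higher became 2 without STAT3 KO TH17 replicate 2 or DMSO TH17 replicate 3. The count of 1 lower in Treg against TH17 became 3 without DMSO TH17 replicate 1, 0 without its replicate 2, and 2 without its replicate 3, Srci1 TH17 replicate 1 or 2 or DMSO Treg replicate 2. That for Srci1 against STAT3 KO became 2 without Srci1 TH17 replicate 1. With TPM alone, the precision that depth gives is unknown.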
